A study of Mus musculus with 12 samples.

Results

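The cells described here are 6 single blastomeres, both cells of each of 3 mouse embryos split at the 2-cell stage. They are the 6 of the series' 12 samples whose titles place them in Experiment 2, and all 6 are used. The embryos came from CF-1 mice bred naturally, were flushed from the oviduct about 36 h post coitus and were taken apart by micromanipulation. The labels name the embryos as blastomere pairs D, G and H and number the cells of each pair 1 and 2, without saying what the numbers stand for. The cells are written D1, D2, G1, G2, H1 and H2. No cell was treated, and all share strain, stage and the way they were collected, while slides differed as given below. The comparison the design allows is thus that of sister cells of an embryo with cells of different embryos. The poly(A)+ RNA of a cell went through 2 rounds of amplification with Arcturus RiboAmp HS reagents, labelled with Cy3 and hybridised to 1 Agilent whole mouse genome array. Each embryo gives 1 pair of cells, so p-values between embryos rest on the spread between sister cells, which holds amplification and array error as well as any difference between the cells.

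At the 2-cell stage the mouse embryo passes from maternal to embryonic control. RNA stored in the egg, for zona pellucida proteins, growth factors and the oocyte NLRP proteins among others, is degraded or put to use, while the first large wave of embryonic transcription starts genes such as the Zscan4, Tcstv and Usp17l families. Sister blastomeres of this stage come from 1 division of 1 zygote and share its cytoplasm, while embryos differ in the egg and sperm they came from and in their exact age.

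Each array carried 43379 non-control spots for 41174 probes. The share of these spots well above background was 78.8% in D1, 64.3% in D2, 31.2% in G1, 52.8% in G2, 46.7% in H1 and 37.5% in H2. Pair D was highest, and G2 lay closer to pair D than to its sister G1. Pair D was hybridised on 1 slide and pairs G and H on another, scanned separately, so what is particular to embryo D cannot be told apart from its slide, while G and H can be compared within a slide. Levels are given as the log2 of the processed signal divided by the array's 75th percentile over the 9253 probes that every one of the 6 arrays marked well above background, called measured probes here and holding the probe with the highest mean of 6867 named genes. A level of 0 is thus that percentile, and a difference of 1 is 2-fold. Where dim probes enter, signals were raised to a common floor of -4.17, which is the weakest signal still well above background in G2, the cell where that limit was highest.

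Dim signal moved with detection. The 5th percentile of the measured probes was -3.18 in D1, -3.34 in D2 and -3.58 in G2, against -5.10 in G1, -5.99 in H1 and -5.47 in H2. Markers of cells that could have come along from the oviduct moved the same way: of 17 oviduct epithelium markers 15 were above the floor in D1, 13 in D2 and 12 in G2, but 0 in G1, 1 in H1 and 3 in H2. Of 28 cumulus and granulosa markers 19 were above it in D1 and in D2, 15 in G2, 4 in G1, and 3 in H1 and in H2. Of 18 macrophage and blood markers 16, 15 and 11 were above it in D1, D2 and G2, and 0, 0 and 1 in G1, H1 and H2. Transcripts of the sex chromosomes, 13 in all, had 9, 9 and 5 members above the floor in D1, D2 and G2 and 0 in the other 3 cells. The weakest signal well above background was lower in H1 (-7.61) and H2 (-6.55), so detected signal there can lie under the floor. Well above background in D1, D2, G1, G2, H1 and H2 were 15, 13, 1, 12, 8 and 7 oviduct markers. For cumulus and granulosa the counts were 23, 19, 5, 14, 12 and 9, and for macrophage and blood 17, 14, 2, 11, 7 and 6. For sex chromosomes they were 11, 9, 0, 4, 3 and 1. In D1, D2 and G2 the highest oviduct marker reached -0.85, -0.80 and -1.51, all for Epcam, an epithelial adhesion molecule. Among the cumulus and granulosa markers the gonadotropin receptors Fshr and Lhcgr and the cumulus matrix gene Tnfaip6 were at the floor in all 6 cells. Others of that list were not: Amhr2, the receptor of anti-Müllerian hormone, stood at 1.00 in D1, 1.81 in D2, 2.37 in G1, 2.44 in G2, 0.73 in H1 and 0.97 in H2. Cyp19a1, Nr5a1 and Col4a1 were also well above background in all 6 cells. Cyp19a1 was nevertheless at the floor in H2, and Col4a1 in G1, H1 and H2. Xist and Ddx3y were at the floor in all 6. The part of dim signal, other cells and depth in results that rest on dim probes was not tested, and for that reason embryo comparisons are also given over the brightest 25% of the measured probes, 2313 probes for 2043 genes.

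**Figure D1:**
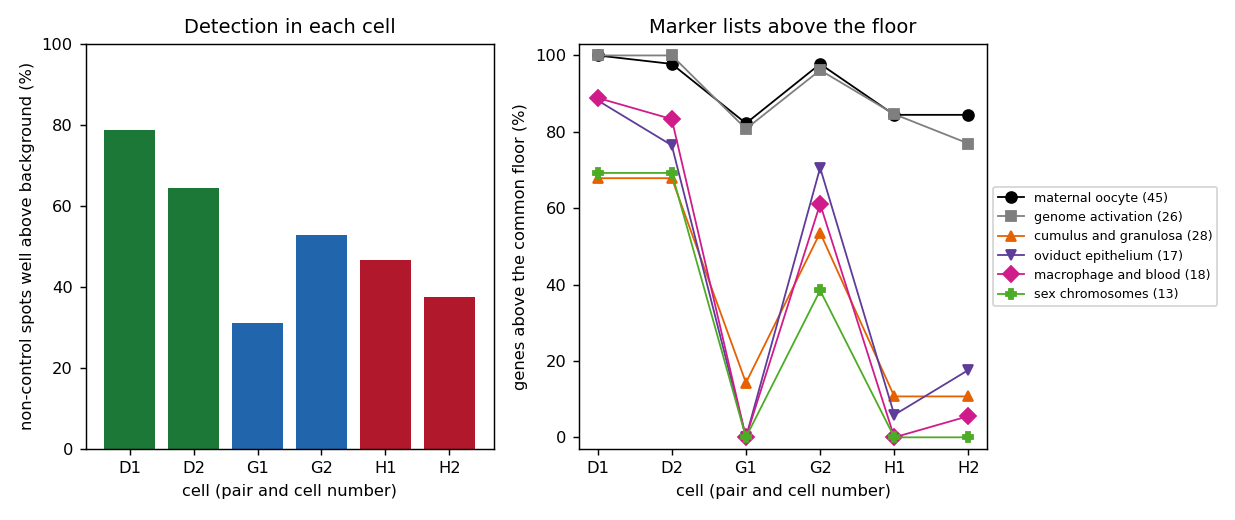
Left, bars give the percentage of non-control spots well above background in each cell. Right, points give the percentage of each marker list (number of genes in brackets) above the common floor in each cell. Maternal and genome activation lists stay above 75% in every cell. The lists of other cell types and of the sex chromosomes are higher in D1, D2 and G2 than in G1, H1 and H2. Signal under this floor in H1 and H2 can still be well above background.

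Most markers of the stage that the labels give were present. Of 45 maternal oocyte genes on the array 45 were above the floor in D1 and at least 37 in every cell. Of 26 genome activation genes at least 20 were above it in every cell. In D1, D2 and G2 most markers of other cell types were above the floor too, so the counts tell little there. Of the dimmer maternal genes, Mos, Figla and Astl were at the floor in G1, H1 and H2, and Nlrp5 was above it in D1 and G2 alone. Oog1, an oocyte-specific gene, stood at 6.91 in D1, 7.08 in D2, 6.65 in G1, 6.44 in G2, 6.37 in H1 and 6.41 in H2. Gdf9, an oocyte growth factor, stood at 3.63, 3.44, 3.97, 3.51, 4.12 and 4.20 in the same order. Both were high in all 6 cells and spanned less than 1 log2 unit. Dppa3, a maternal factor that guards methylation of the maternal genome, stood at 4.13, 3.98, 3.87, 4.03, 4.36 and 4.19. Among genes switched on at this stage, Tcstv1 stood at 2.20, 2.35, 2.56, 2.59, 2.82 and 2.65, with pair D below and pair H above pair G. Zfp352, a zinc finger gene of the 2-cell stage, stood at 2.07, 2.23, 2.46, 2.51, 3.04 and 2.68, in the same order of embryos.

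On average sister cells were more alike than cells taken from different embryos, by a margin that 3 pairs cannot bring under 0.05. Over the measured probes the root-mean-square log2 difference between sisters was 0.72 in pair D, 1.21 in pair G and 1.14 in pair H, a mean of 1.02 ± 0.26 (SD, n = 3 pairs). Between cells of different embryos it was 1.39 ± 0.30 (SD, n = 12 pairs of cells), with a range from 0.80 to 1.75. The groups overlapped: G2 lay nearer to D1 (0.80) than to G1, and G1 lay nearer to H2 (1.20), so that 4 of 6 cells had their sister as nearest cell. Over the brightest 25% the sister differences were 0.56, 0.57 and 0.61, a mean of 0.579 ± 0.0292 (SD, n = 3), against 0.731 ± 0.0872 (SD, n = 12) between embryos. There 5 of 6 cells had their sister as nearest cell, the exception being H1, which was 0.607 from D1 and 0.613 from H2. Within the slide shared by G and H, cells of different embryos were 1.37 apart over all measured probes and 0.827 over the brightest 25% (n = 4 pairs of cells). The true pairing gave the smallest mean sister difference of all 15 ways to pair 6 cells on both sets of probes. In an exact one-sided permutation test this is p = 0.0667, the smallest this design allows. Sisters always shared a slide, while most other pairings join cells across slides, so this rank does not separate embryo from slide.

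**Figure D2:**
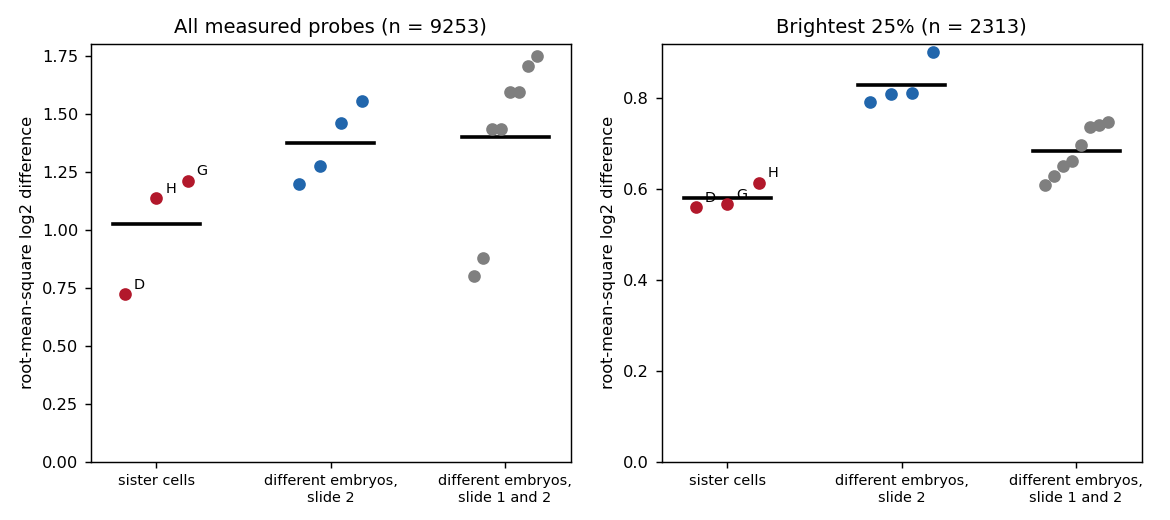
Each point is a pair of cells, and the vertical axis gives the root-mean-square log2 difference over all measured probes (left) or over the brightest 25% (right), with a line at the mean of each class. Sister pairs (red, named by embryo) lie below the 4 pairs of cells from G and H, which share a slide (blue), on the right, and overlap the cross-embryo pairs that span slides (grey) on the left.

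Gene by gene, less of the variance lay between embryos than between sisters for the median probe. The median SD between sister cells was 0.546 log2 units over the measured probes and 0.323 over the brightest 25%. The SD between embryo means, which are means of 2 cells and carry sister spread as well, had medians of 0.544 and 0.327. The median share of a probe's variance that lay between embryos was 0.372 over measured probes and 0.346 over the brightest 25%. A sister difference of over 2-fold was seen for 14.2% of measured probes in pair D, 34.4% in pair G and 28.9% in pair H, but for 7.44%, 7.52% and 9.64% of the brightest 25%, so the gap between pair D and the others was seen on dim probes and not on bright ones.

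Some genes had nearly the same level in all 6 cells. Rbpms2, an RNA-binding protein, stood at 4.49 in D1, 4.47 in D2, 4.40 in G1, 4.39 in G2, 4.45 in H1 and 4.47 in H2. Psme4, an activator of the proteasome, stood at 4.60, 4.49, 4.63, 4.50, 4.57 and 4.48 in that order. Cbx2, a Polycomb subunit that reads histone H3 methylation, stood at 1.57, 1.53, 1.68, 1.74, 1.59 and 1.62. These are 3 of the 10 genes of the brightest 25% with the smallest SD over the 6 cells. The others were Zkscan5, 1700124P09Rik, Dbf4, Marchf5, Mettl9, Ddx3x and Ralgds.

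Whether a gene differed between the 3 embryos was tested with limma's moderated F over the 24388 probes that at least 3 arrays marked well above background. None passed an adjusted p of 0.05 (0%), the smallest being 0.0905, while 11274 (46.2%) had an unadjusted p under 0.05. Of the tested probes 73.2% were highest in pair D, against 22.2% of the brightest 25%, where pairs G and H were highest for 38.9% each. The filter on 3 arrays itself let in 5090 probes found only in D1, D2 and G2. In 57.3% of the tested probes both cells of an embryo were at the floor, which sets that sister difference to 0. Other settings called between 0 and 12345 probes. By the levels of the main setting in all 6 cells, pair D was highest in 57.6% of the probes called after quantile normalization. Of those called elsewhere it was highest in 92.6 to 97.6% by the same levels. Both cells of an embryo were at the common floor in 64.1% of the probes called after quantile normalization and 98.7% of those with a floor per array. The share was 93.0% with no filter, 89.9% with an intensity trend and 85.5% without pair G. The part of dim signal in these counts was not tested, and pair D cannot be told apart from its slide.

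Over the brightest 25% alone, fitted and adjusted over those 2313 probes, limma called 3 probes (0.13%), and 513 (22.2%) had an unadjusted p under 0.05. Adjusted p-values of this fit belong to the F over the 3 embryos, not to the single difference printed beside them. 1110038F14Rik, a gene known here by its clone name, stood at 0.29 in D1, 0.64 in D2, 2.27 in G1, 1.91 in G2, -1.43 in H1 and -1.58 in H2. The 3 embryos did not overlap, and pair G exceeded pair H by 3.60 log2 units (SE 0.30, 12.1-fold, limma F adjusted p = 0.0119). Within the slide shared by G and H the limma adjusted p was 0.00587. Snrnp25, a protein of the minor spliceosome, stood at -0.62, -0.86, 1.87, 1.90, -0.67 and -0.56. Pair G was above both other embryos, which overlapped, and exceeded pair D by 2.63 (SE 0.28, 6.18-fold, limma F adjusted p = 0.0153). A dimmer second probe of Snrnp25 had another order, at -1.64, -1.75, -2.16, -1.79, -4.50 and -4.81.

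The third call was the dimmer of 2 probes of Plekha3, a protein that binds a phosphoinositide of the Golgi. It stood at -1.81 in D1, -1.52 in D2, 0.50 in G1, 0.77 in G2, 0.75 in H1 and 0.90 in H2. Pair D was thus low, by 2.49 against pair H (SE 0.29, 5.63-fold, limma F adjusted p = 0.0235). This difference coincides with the slide, and the other Plekha3 probe, at 0.66, 0.46, 0.79, -0.16, 0.04 and 0.33, did not separate pair D. Leaving out a cell changed the count: limma called 3 probes without D1, 1 without D2, and 0 without G1, G2, H1 or H2, where 378, 349, 420 and 367 had an unadjusted p under 0.05. With each cell left out in turn, the limma adjusted p of 1110038F14Rik in this fit was 0.0207 without D1, 0.0213 without D2 and between 0.092 and 0.125 without any other cell. The limma adjusted p of Snrnp25 was 0.032 without D1 and between 0.0623 and 0.175 without any other cell, and that of Plekha3 lay between 0.0981 and 0.155, so Plekha3 was called only with all 6 cells in this fit. For 1110038F14Rik the difference between G and H lay between 2.79 and 3.78 over 17 alternatives to the fit over all tested probes.

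The other genes named for embryo differences were the rest of the 24 genes of the brightest 25% with the smallest p in the fit over all tested probes, and the measured members of each gene list with the smallest p there, bright or not. They did not pass the threshold in either fit they entered, so they are given as levels. Of the 24, with 1110038F14Rik and Snrnp25 included, 16 had pairs G and H at opposite ends (66.7%, against 46.7% of all genes of the brightest 25%), and the highest embryo was D for 3, G for 11 and H for 10. Of 11 with another measured probe, 3 had a further probe with the same order of embryos (27.3%), against 216 of 683 genes of the brightest 25% (31.6%).

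Among oocyte genes, Nlrp14, an NLR-family protein of oocytes, stood at 2.16 in D1, 1.96 in D2, 0.95 in G1, 1.06 in G2, 2.74 in H1 and 2.58 in H2. Pair H exceeded pair G by 1.66 (SE 0.28, limma F adjusted p = 0.0894). Nlrp4a, a member of the same family, stood at 2.23, 2.19, 1.17, 1.05, 3.01 and 2.61 and showed the same order, H above D above G, with no overlap; its second probe kept that order in the embryo means. E330034G19Rik stood at 2.90, 2.49, 1.85, 1.87, 3.35 and 3.19, again H above D above G, and on a dimmer probe at -1.37, -1.35, -5.10, -2.50, -1.79 and -2.74, where D was highest. Rfpl4, an oocyte RING finger protein, stood at 0.27, -0.03, -1.66, -1.41, 0.75 and 0.22. Pair G was lowest in each of the 4, and D and H overlapped in Rfpl4.

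Among genes of genome activation, Usp17la, a deubiquitinase of the 2-cell stage, stood at 0.46 in D1, 1.04 in D2, 0.37 in G1, 0.36 in G2, 2.35 in H1 and 2.30 in H2. Both cells of H were above the other 4, by 1.96 over pair G (SE 0.30, limma F adjusted p = 0.0894). Zscan4c, a gene expressed in bursts around genome activation, had a probe at -2.73, -1.44, -2.47, -1.46, 1.02 and 0.68, also with both cells of H on top. Its second probe, at -1.65, -2.24, -3.04, -2.01, -1.71 and -1.96, did not set H apart, and the Zscan4 copies are near identical, so the gene behind the first probe is uncertain. Klf4, a pluripotency factor, stood at -1.04, -0.38, -0.53, -0.14, 0.92 and 1.21. Here too the cells of H were above the rest, with D and G overlapping.

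Among genes of chromatin and RNA processing, Smc1a, a cohesin subunit, had a probe at 0.47 in D1, 0.91 in D2, -0.62 in G1, -0.71 in G2, 1.64 in H1 and 1.74 in H2. Pair H exceeded pair G by 2.36 (SE 0.29, limma F adjusted p = 0.0618), with D between. A dimmer probe, at -1.28, -1.06, -4.60, -1.91, -2.38 and -4.64, was highest in D with G and H overlapping. Hdac1, a histone deacetylase, ran the other way at 1.07, 1.38, 1.71, 1.80, 0.33 and 0.47. Pop5, a subunit of RNase P and RNase MRP, stood at 0.25, 0.41, 0.74, 0.69, -1.44 and -1.05, with pair H lowest, and its second probe kept the order G, D, H. Tra2a, a splicing regulator, stood at 1.75, 1.62, 2.73, 2.94, 1.44 and 1.21. Imp3, of the particle that matures ribosomal RNA, stood at 2.11, 2.08, 2.39, 2.54, 1.06 and 1.16, so that in all 4 of Hdac1, Pop5, Tra2a and Imp3 pair G was highest and pair H lowest.

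Genes of metabolism and signalling varied too. Psat1, an enzyme of serine synthesis, stood at -0.36 in D1, -0.45 in D2, 0.99 in G1, 1.27 in G2, -0.36 in H1 and -0.42 in H2, with pair G alone high. Mt1, a metallothionein, stood at 0.39, -0.06, 1.30, 1.87, -0.62 and -0.35, in the order G, D, H, which a dimmer probe at -3.30, -3.67, -5.39, -3.86, -7.12 and -5.25 did not keep. Ywhae, a 14-3-3 protein, was low in pair G at 1.52, 1.78, 0.14, -0.44, 1.63 and 1.55, and lowest there on a dimmer probe at -2.33, -2.14, -4.24, -3.03, -1.28 and -2.29. Slc25a5, an ADP/ATP carrier of mitochondria, stood at 1.01, 0.87, -0.28, -0.34, 0.92 and 0.95, and D exceeded G by 1.25, a difference that turned to -0.18 when arrays were scaled over all probes. Cep70, a centrosomal protein, stood at 0.52, 0.66, -0.29, -0.27, 1.04 and 1.06. Slc2a1, a glucose transporter, stood at -1.26, -0.90, -0.19, -0.33, 0.97 and 0.63, in the order H, G, D with no overlap. Scaling over all probes shifted whole arrays against each other: it cut D less G of Ywhae from 1.80 to 0.36, and G less H of Hdac1 from 1.35 to 0.54, of Pop5 from 1.96 to 1.15, of Mt1 from 2.07 to 1.26 and of Rpl6, described below, from 1.25 to 0.44. It widened G less D of Psat1 from 1.53 to 2.97 and H less D of Klf4 from 1.77 to 4.01.

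**Figure D3:**
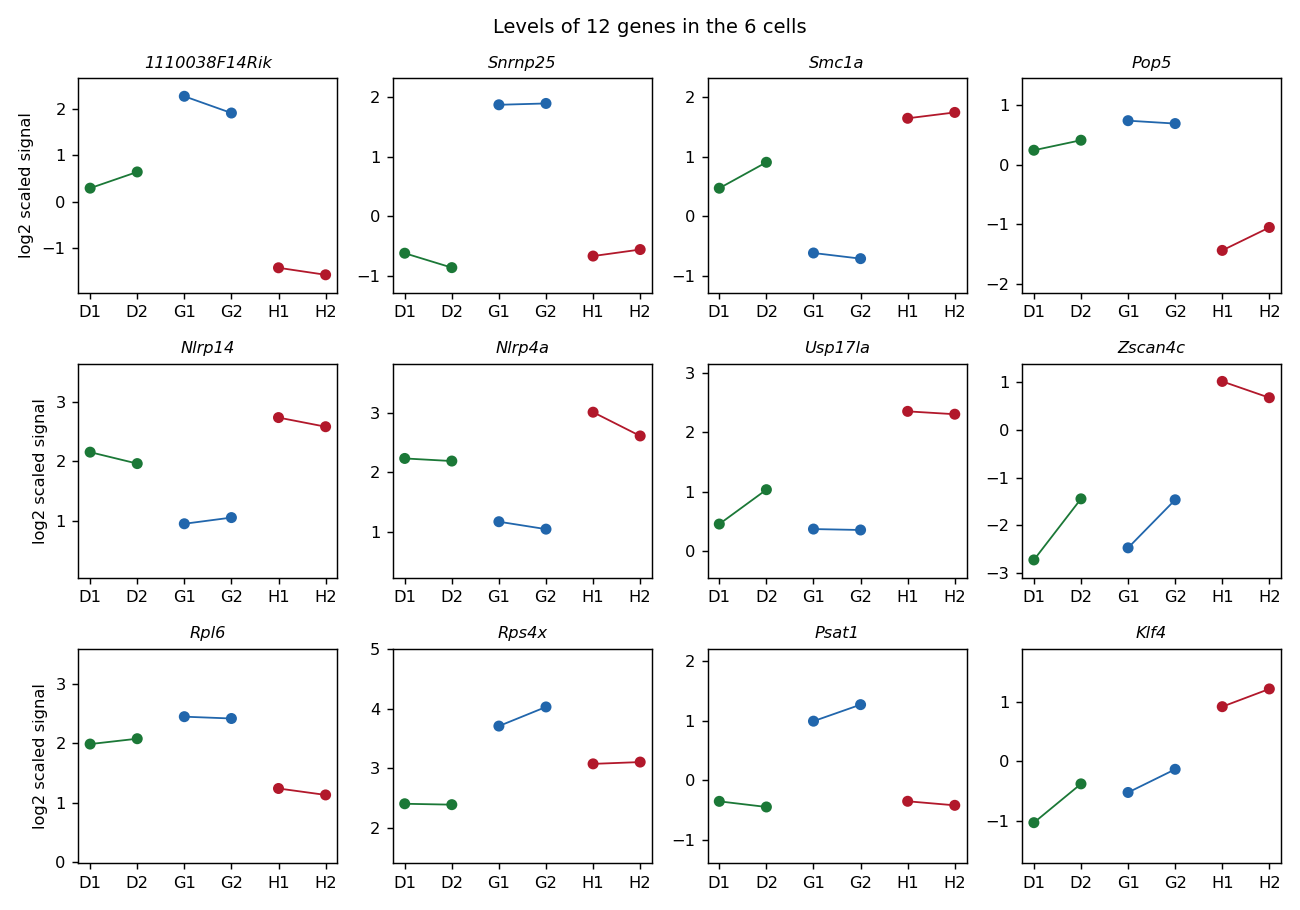
Log2 scaled signal of 12 genes in the 6 cells, a panel per gene with its own vertical axis, lines joining sister cells (green D, blue G, red H). In Smc1a, Nlrp14 and Nlrp4a pair H is highest and pair G lowest without overlap, and in 1110038F14Rik, Pop5 and Rpl6 pair G is highest and pair H lowest.

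Gene lists set pairs G and H apart within their shared slide, which is given as counts beside those of all genes. Over the 2043 genes of the brightest 25%, both cells of G were above both of H in 29.1% and both of H above both of G in 26.7%. Of 61 ribosomal protein genes in that 25% 50 had both G cells above both H cells and 0 the reverse. Their median level, less that of all genes of that 25%, was -0.04 in D1, 0.12 in D2, 0.40 in G1, 0.37 in G2, -0.57 in H1 and -0.34 in H2. Pair G was thus highest, pair H lowest and pair D between, with no overlap. Rpl6, of the large subunit, stood at 1.99, 2.08, 2.45, 2.42, 1.24 and 1.13, and its second probe had the same order. Rps4x, of the small subunit, departed from the list, with pair D lowest at 2.40 and 2.39, G at 3.71 and 4.03, and H at 3.07 and 3.10. An unadjusted limma p under 0.05 was found for 26 of the 61 (22.7% of all genes of that 25%), and the 3 embryos were free of overlap in 20 (15.7% of all). None of the 61 passed the adjusted threshold.

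The maternal oocyte list ran opposite to the ribosomal list. Of its 27 genes in the brightest 25% 3 had both G cells above both H cells and 15 the reverse, and the median less that of all genes of that 25% was 0.03 in D1, -0.08 in D2, -0.18 in G1, -0.45 in G2, 0.22 in H1 and 0.33 in H2. Pair H was highest and pair G lowest, with no overlap. The list of RNA storage and translation control, which holds binding proteins that keep maternal RNA dormant, had 2 of 11 with G above H and 6 the reverse. Its medians were 0.04, -0.25, -0.04, -0.34, 0.25 and 0.16, with pairs D and G overlapping. Ddx4, a germline RNA helicase, stood at 0.01, 0.12, 0.72, 0.13, 1.55 and 0.96, highest in pair H. Pabpc1, the poly(A)-binding protein, was an exception at 3.49, 3.09, 3.56, 3.58, 2.63 and 2.03, lowest in pair H.

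Genome activation genes went both ways, with 4 of 12 higher in G and 6 higher in H. Their median G less H, relative to all genes of the brightest 25%, was -0.02. Over all measured genes, given below, it was 0.12, so its sign depended on the genes included. Their medians were -0.38, -0.16, -0.09, 0.17, 0.13 and 0.10, lowest in pair D, which coincides with its slide. Of 27 oxidative phosphorylation genes 11 were higher in G and 3 in H. Over all measured probes the background was 29.9% for G above H and 18.6% for H above G, and the counts were 60 and 4 of 78 for ribosomal proteins, 6 and 21 of 39 for maternal genes, 3 and 13 of 25 for RNA storage, 9 and 7 of 23 for genome activation, and 24 and 7 of 63 for oxidative phosphorylation. The median difference G less H over all measured genes was 0.20 and changed sign with the scaling, so list medians are given relative to it. They were 0.58 for ribosomal proteins (0.48 to 0.74 over 8 alternative scalings and sets of cells), -0.62 for maternal genes (-0.91 to -0.38), -0.61 for RNA storage (-0.81 to -0.46), 0.12 for genome activation (0.02 to 0.21) and 0.14 for oxidative phosphorylation (0.14 to 0.26).

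The other lists are given by their counts. Of the measured members, both G cells were above both H cells in 9 of 28 genes of G2 and mitosis and the reverse in 4, in 14 and 9 of 34 of S phase, in 16 and 13 of 42 of chromatin, in 11 and 4 of 31 of the proteasome, in 7 and 6 of 34 of stress and survival and in 13 and 10 of 34 of metabolism and transport. Of the cytoskeleton list 5 of 26 were higher in G and 8 in H, and of polarity and adhesion 6 and 3 of 19. Pluripotency and trophectoderm lists had 11 measured genes each, with 4 and 5 higher in G and 2 each in H. Gmnn, an inhibitor of replication licensing, was among the genes lowest in H at 3.54 in D1, 3.31 in D2, 3.14 in G1, 3.34 in G2, 2.43 in H1 and 2.14 in H2. Cdc42, a polarity GTPase, was among those highest in H at 0.93, 1.17, 0.69, 0.36, 1.86 and 1.58.

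**Figure D4:**
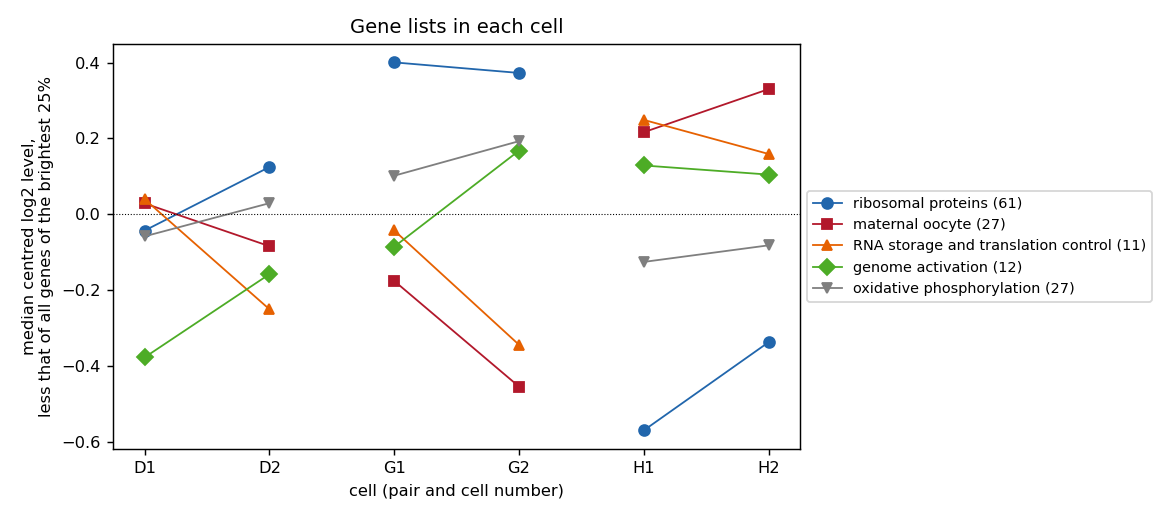
Each point is the median of a gene list in a cell, after centring each gene on its mean over the 6 cells, less the same median over all genes of the brightest 25% (log2 units, number of genes in brackets, lines joining sisters). Ribosomal protein genes are highest in pair G and lowest in pair H, and maternal oocyte genes are the reverse.

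Detection gave a coarser view of the same cells. Of probes well above background in either sister, 80.4% were so in both cells of pair D, 45.3% in pair G and 68.0% in pair H, against 36.8 to 75.4% (median 55.3%) for the 12 pairs of cells from different embryos. Pair G lay below that median, beside detection of 31.2% of spots in G1 and 52.8% in G2, whose part in it was not tested. Probes well above background in both cells of an embryo and in no other cell numbered 3460 for pair D, 14 for pair G and 204 for pair H, while probes missing only from 1 embryo numbered 41 for D, 427 for G and 261 for H. A further 5090 were found only in D1, D2 and G2 and 3886 only in D1. Folds below set the cells with signal against the lowest well-above-background signal of the others, or the probe's own signal where that is higher, and are lower bounds. That limit was -4.99 in D1, -4.27 in D2, -5.76 in G1, -4.17 in G2, -7.61 in H1 and -6.55 in H2. Bounds can therefore run higher for genes missing in pair H, and their sizes do not rank the embryos.

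The largest bound among the genes named for detection between embryos was that of Stk33, a serine/threonine kinase. It stood at 0.23 in D1, 0.23 in D2, 0.05 in G1, 1.00 in G2, -8.23 in H1 and -7.58 in H2. Both cells of pair H were not well above background, and the other embryos were at least 176-fold higher. Stk33 was among the tested probes, none of which passed the adjusted threshold of limma. Probes found in fewer than 3 cells, such as those of Kdelr1 and Mthfd1l below, were not tested. Klhl24 and Armc5 were also missing in pair H alone, by at least 57.9-fold and 37.8-fold; 2 further probes of Klhl24 were not well above background in any cell. Missing in pair G alone were Slc39a7, a zinc transporter of the endoplasmic reticulum and Golgi, at -0.76, -1.38, -5.69, -4.46, -0.87 and -0.92 (at least 15.4-fold), and Ezr, which links actin to the membrane (at least 8.68-fold). Spink2, a protease inhibitor, and Rcn2, a calcium-binding protein, were missing in pair D alone, by at least 7.50-fold and 4.14-fold, although pair D had the most probes well above background. Kdelr1, a receptor that returns proteins to the endoplasmic reticulum, was found in pair H alone, by at least 5.38-fold. Apart from Klhl24, each gene named here had 1 probe.

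Sister cells differed most in the following genes, chosen for the highest sister variance relative to that of probes of like level. Slc35e3 stood at 0.43 in D1, 1.54 in D2, 0.90 in G1, 1.17 in G2, -4.66 in H1 and -0.14 in H2. Taldo1, an enzyme of the pentose phosphate pathway, stood at 1.25, 0.26, 1.63, 1.38, 1.25 and -1.89. Oaz2, an antizyme that controls polyamine synthesis, stood at -0.17, 0.36, 0.86, 0.54, 0.15 and -3.85. In each a single cell of pair H lay more than 2 log2 units below the other 5. Socs3, an inhibitor of cytokine signalling, was split in pairs D and H at 0.60, -0.88, 1.08, 1.41, 1.81 and -1.93. Tdrd12, a Tudor protein of the piRNA pathway, was split in pairs D and G at -0.24, -3.85, 0.52, -2.61, 0.28 and 0.94. Nif3l1 was lower in cell 2 of every pair, at 1.57, 0.08, 1.55, 0.32, 0.51 and -2.96.

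Krt18, a keratin later characteristic of trophectoderm, stood at -1.90, -1.82, -1.82, -1.77, -3.64 and 1.33, level in the 4 cells of D and G and apart in the cells of H. Krt8, its partner keratin, had a probe at -4.05 in D1 and -0.02 in D2 that was not well above background in the other 4 cells, but its second probe, at -3.47, -3.37, -3.46, -4.24, -7.09 and -8.44, did not set D2 apart. Among maternal genes of the brightest 25%, Ybx2, a protein that binds stored RNA, stood at 2.16, 2.89, 3.25, 1.89, 2.51 and 3.50. Npm2, an oocyte histone chaperone, stood at 4.07, 4.18, 5.03, 4.55, 4.44 and 5.39. In both genes D2, G1 and H2 were each above their sister. Cfl1, an actin-severing protein, stood at 0.57, 1.46, 1.23, 0.15, -0.04 and 1.14 with the same cells on top, while Mcm4 of the replicative helicase ran opposite at 2.13, 1.50, 1.15, 2.03, 1.83 and 0.97.

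By list, the median sister variance relative to that of probes of like level was 1.49 for oxidative phosphorylation, 0.77 for ribosomal proteins, 0.76 for maternal genes and 0.51 for genome activation, against 1.08 over all measured genes. Other lists reached similar values, such as 0.70 for chromatin and for pluripotency, 0.78 for RNA storage and 1.34 for the cytoskeleton. A sister difference of over 2-fold in all 3 pairs was seen in 154 of 6867 genes (2.24%). Their spread is the residual of the fit and has no test.

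**Figure D5:**
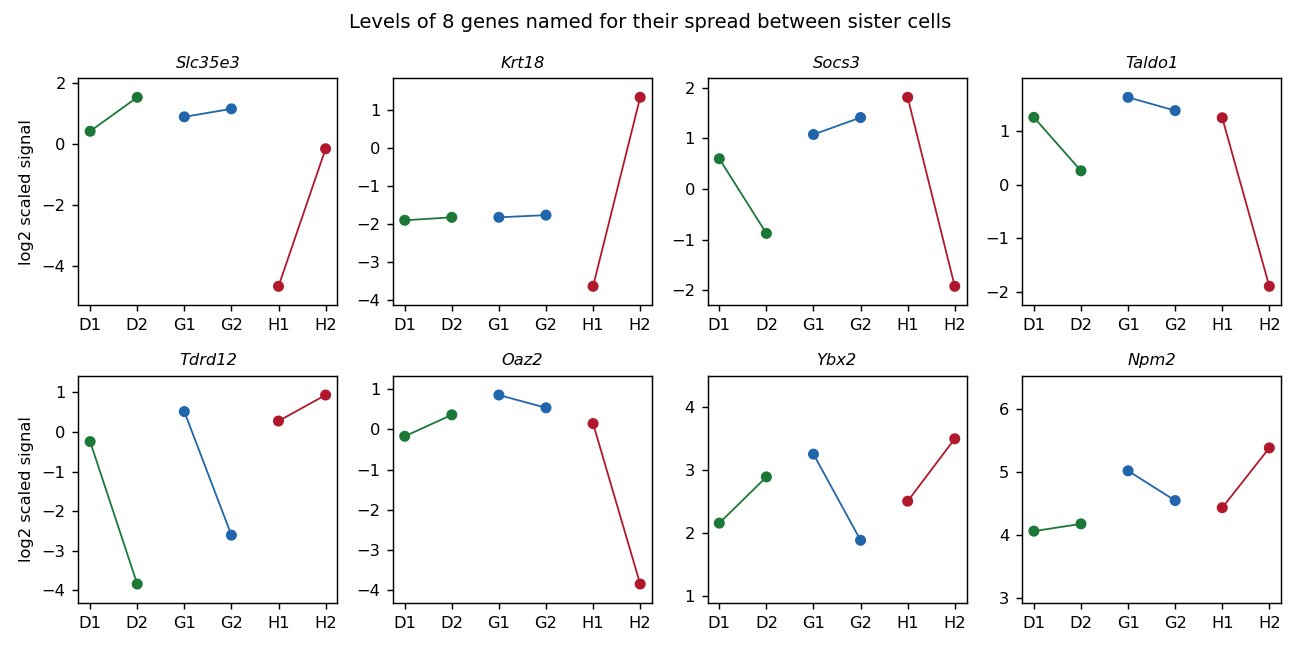
Log2 scaled signal of 8 genes in the 6 cells, a panel per gene with its own vertical axis, lines joining sister cells (green D, blue G, red H). Slc35e3, Taldo1 and Oaz2 are low in a single cell of pair H, while in Ybx2 and Npm2 D2, G1 and H2 lie above their sisters.

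Some genes were detected in a single sister. Tmem53 stood at 0.14 in H2 and was not well above background in H1, at least 216-fold lower, and Csf2ra, a cytokine receptor subunit, was at least 183-fold lower in H1 than in H2. Gadd45g, a stress-inducible growth arrest gene, stood at 0.63 in G2 and was at least 83.7-fold lower in G1, and Mlst8, a subunit of the mTOR complexes, was at least 57.4-fold lower there. In pair D, Tspan4, a tetraspanin, was at least 18.2-fold lower in D2 and Gm9 at least 46.4-fold lower in D1. In the genes named here the cell without signal was G1 in pair G and H1 in pair H. Ranking by these bounds favours the sister with the lower limit, and limits were -5.76 in G1, -4.17 in G2, -7.61 in H1 and -6.55 in H2. Over all probes of pair H, 5117 were well above background in H1 but not H2, and 1420 in H2 but not H1. In pair G these counts were 1999 for G1 and 10933 for G2. Mthfd1l, a mitochondrial folate enzyme, was found in D2 and in no other cell, at least 26.5-fold above D1.

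No difference shared by the cell numbers of the labels was detected in the main setting, which rests on 3 pairs. With embryo as a block, limma called 0 of 24388 probes (0%) between cells 2 and 1, and 558 (2.29%) had an unadjusted p under 0.05. The smallest p was that of Vipas39, a protein of vesicle sorting, at -0.81 in D1, -3.27 in D2, -1.07 in G1, -3.16 in G2, -1.04 in H1 and -3.63 in H2. Cell 2 was lower in 3 of 3 pairs, by -2.38 on the log2 scale (SE 0.24, limma adjusted p = 0.915). Its second probe, at -2.65, -3.25, -3.23, -3.36, -3.68 and -5.73, was also lower in cell 2 of each pair, by -0.40 on average with H2 raised to the floor. Skp2, which marks cell cycle inhibitors for degradation, was higher in cell 2 of each pair by 2.18 on average, at -2.28, -0.52, -4.17, -1.63, -3.23 and -0.99. Its second probe, at -1.04, -1.46, -6.45, -1.92, -3.83 and -4.25, was higher in cell 2 of pair G alone. Capza1 and Cyp4f39 also differed the same way in 3 of 3 pairs, with 1 cell of each pair at the floor.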

How the data were processed

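The authors' extraction software, per the file headers, was Feature Extraction 9.1.3.1 of Agilent in its 1-colour mode, and they deposited the background-subtracted processed signal of each spot as an intensity in arbitrary units. Outlier spots were left out (57 probes lost), spots of a probe were averaged, and signals were scaled, floored where dim and turned to log2 as the opening describes. The scaling percentile was taken over measured probes because on 3 arrays fewer than 50% of spots were detected. For each gene the probe with the highest mean was used. The authors' deposited value table, also an intensity, equals these signals divided by 1 constant per array, apart from low values. With low values set aside, 99.8 to 100% of the rest lay within 1%. In G1, H1 and H2, 25104, 24194 and 23367 of 41117 values sat at 0.01. Accessions named 22924 probes through the RefSeq table of GRCm38.p6, 10624 kept the name of the file, and 7569 had none.

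Embryos were compared with an F test and cell numbers with embryo as a block, in limma 3.58.1 (R 4.3.3) with Benjamini-Hochberg adjustment at 0.05, tested on simulated data. Python with numpy 2.4.6, pandas 2.3.3, statsmodels 0.14.6 and matplotlib 3.10.9 did the rest. The embryo share of variance is the intraclass correlation of the 6 cells by embryo, which can be negative. Named genes were the 24 genes of smallest p in the brightest 25%, up to 4 per list, the 16 highest sister variances and 2 per list, the 10 smallest SDs, the 4 smallest p for cell number, and the 6 widest cases per detection class. As no probe passed, the rule for passing genes was applied to the smallest p. The brightest 25% was chosen after seeing the data. Members, gene lists and rules were chosen with earlier results of these data known. The number of arrays limits the precision. The text gives a part of the genes so named, and some named for sister variance are not reported here.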

Additional observations from a re-analysis of the deposited data

Results flagged for a closer look

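In 7 named genes 1 cell lay apart from the other 5 by more than Dixon's limit for 6 values (gap over range above 0.625), and all 7 were named for their wide sister spread. H1 was the low cell in 5: Slc35e3 at -4.66, Hspbap1 at -6.81, Ndufs7, of respiratory complex I, at -7.34, Uqcrfs1, the iron-sulfur protein of complex III, at -5.29, and Cbx5, the heterochromatin protein HP1 alpha, at -7.15. H2 was the low cell in Nif3l1 at -2.96 and in Oaz2 at -3.85. Chance flags about 1 in 20 groups, and the genes were chosen for spread. Over all measured genes 382 of 6867 (5.56%) had such a cell, and 95 of 2043 (4.65%) in the brightest 25%. Among the 382, H2 was low in 91, H1 in 73 and G1 in 67, which were also the cells whose dim signals were lowest. The part of dim signal was not tested.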

How the results depend on the processing

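The distance between embryos less that between sisters, 0.37 in the main setting, kept its sign under 14 alternatives (0.15 to 0.57). The count of probes called between embryos, 0 in the main setting, was 309 after quantile normalization, 10062 with a floor per array, 1697 with no filter on dim probes, 12115 with an intensity trend and robust prior, 12345 without pair G, and 0 to 11693 with each cell left out (11361 without G1, 11693 without G2). It stayed 0 when arrays were scaled over all probes, after normexp, with the deposited table, a lower floor, the filter on all 6 arrays, and without pair D or H. The cause was not tested. Cell number gave 5 probes after normexp and 1 with the trend. In the brightest 25% the count was 3 after quantile normalization and within the slide of G and H, and 0 to 3 without each cell. The median embryo share, 0.37, was 0.54 with scaling over all probes, 0.67 with probes on at least 3 arrays and the floor, 0.18 without pair D, and 0.30 to 0.52 without each cell. The median sister SD, 0.55, was 0.79 with scaling over all probes, 0.44 after normexp, 0.32 in the brightest 25% and 0.45 to 0.56 without each cell. Of 340 values of 20 named genes over alternatives 1 reversed, Slc25a5 (-0.18, scaling over all probes). The median of all genes for G less H, 0.20, turned to -0.61 with that scaling and to -0.027 after quantile normalization.

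Cell numbers met no rule for pairing the embryos: differences between cells 2 and 1 correlated across measured probes at -0.055 between D and G, 0.092 between D and H and 0.0073 between G and H, and in the brightest 25% at -0.113, 0.287 and -0.256, not all above 0.1. With cell number as a replicate block limma called 0 probes between embryos (9124 with an unadjusted p under 0.05), 4 in the brightest 25%, with a distance difference of 0.48, a median embryo share of 0.56 and a sister SD of 0.42. Without the embryo block, cell number gave 0 calls and 240 with an unadjusted p under 0.05.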

Other observations

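Sister differences shared an arrangement across the 3 pairs that the cell numbers do not give. Of 2043 genes of the brightest 25%, D2, G1 and H2 lay all above or all below their sisters in 830 (40.6%), and above in 513 of these, while the other 3 arrangements held 16.4 to 21.9% each. Of the 200 most variable of these genes 117 (58.5%) had it, 90 with the 3 cells higher, against 713 of the other 1843 (38.7%). Over all measured genes the share was 32.4%. Among members were Rplp0, a ribosomal stalk protein, at 5.63 in D1, 6.36 in D2, 6.64 in G1, 6.08 in G2, 5.45 in H1 and 6.27 in H2, and Prdx2, a peroxidase, at 5.12, 5.67, 6.14, 5.54, 5.22 and 6.13. Cdc20, an activator of the anaphase-promoting complex, stood at 3.39, 4.02, 3.73, 3.23, 3.14 and 3.76. The ribosomal protein list had it in 35 of 78 (44.9%), the maternal list in 18 of 39 (46.2%), the RNA storage list in 11 of 25 (44%) and the oxidative phosphorylation list in 16 of 63 (25.4%). The arrangement was noticed in these data and has no test. D2, G1 and H2 each had a smaller share of spots well above background than their sisters, and the part of signal depth in it was not tested.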
